A study of Mus musculus with 4 samples.

Results

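The 9 genes described here carry microglial lipid from uptake to storage and efflux: the lipid carrier Apoe, the sterol exporters Abca1 and Abcg1, the liver X receptors Nr1h2 (LXRβ) and Nr1h3 (LXRα), the uptake genes Lpl and Scarb1, and the storage genes Soat1 and Plin2. They were taken by name, with earlier results of these data known but by a rule that uses no measured value, from 19737 genes in the deposited single-cell matrix, and all 9 passed the filter on low counts and were among the 14058 genes tested. The study sequenced RNA from sorted brain microglia of 20 mice, 4 in each of 5 groups, 24 hours after a single intravenous dose of 10 mg/kg antibody. All mice were homozygous for a knock-in that puts the apical domain of the human transferrin receptor into the mouse receptor (TfRmu/hu), controls included. Mice labelled WT carry no other allele in the annotation, and AppSAA mice were also homozygous for the AppSAA knock-in, an amyloid precursor protein allele that gives amyloid plaques under the gene's own promoter.

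WT mice received ATV:ISO (group WT ATV:ISO) or ATV:4D9 (WT ATV:4D9), and AppSAA mice received ATV:ISO (AppSAA ATV:ISO), 4D9 (AppSAA 4D9) or ATV:4D9 (AppSAA ATV:4D9). 4D9 is an antibody against mouse TREM2, a lipid-sensing surface receptor of microglia. ATV is an antibody transport vehicle, an Fc changed to bind the human transferrin receptor and so to be carried across the blood-brain barrier, and ATV:ISO is the isotype control in that format. The deposited annotation names the control arm ATV:DNP02, read here as ATV:ISO. Its antibody descriptions give different Fc variants to the arms (LALA for ATV:ISO and ATV:4D9, deglycosylated LALAPG for 4D9), so the AppSAA 4D9 and ATV:4D9 arms differ in more than the vehicle. The mice were male except 1 (WT ATV:ISO replicate 4); a stated age of 8 months may not cover the WT mice. Each of 4 pools held 1 mouse of each group, so pool and group can be told apart, and a replicate number below is the number of the pool.

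Apolipoprotein E coats the lipid particles that microglia and astrocytes release, and ABCA1 and ABCG1 load cholesterol onto such particles at the plasma membrane. The liver X receptors are nuclear receptors that bind oxysterols, pair with the retinoid X receptors and switch on Apoe, Abca1 and Abcg1 when sterol is in excess. Lipoprotein lipase frees fatty acids from lipoproteins, scavenger receptor class B type 1 takes up cholesteryl ester from high-density lipoprotein, sterol O-acyltransferase 1 esterifies spare cholesterol, and perilipin 2 coats the droplets that hold it. Apoe and Lpl are known for rising in microglia that surround amyloid plaques.

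Abca1 and Apoe are both textbook targets of the liver X receptors, and they moved apart in part of these data. The 250 bases before their start sites are shown as a description. Whether these sequences bear on the changes was not tested. Both lines are written 5′ to 3′ on the minus strand, from RefSeq on GRCm38.p6, at chr4:53159896-53160145 for Abca1 and chr7:19699189-19699438 for Apoe. Capitals mark a match to the core of a DR4 element, the kind of repeat that a liver X receptor and its partner bind, searched as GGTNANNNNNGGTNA on both strands.
Abca1: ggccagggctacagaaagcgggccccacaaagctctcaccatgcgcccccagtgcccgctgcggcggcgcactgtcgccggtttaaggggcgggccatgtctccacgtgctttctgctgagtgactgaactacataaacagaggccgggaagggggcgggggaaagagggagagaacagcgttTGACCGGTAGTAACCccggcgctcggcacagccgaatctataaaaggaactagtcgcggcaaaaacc
Apoe: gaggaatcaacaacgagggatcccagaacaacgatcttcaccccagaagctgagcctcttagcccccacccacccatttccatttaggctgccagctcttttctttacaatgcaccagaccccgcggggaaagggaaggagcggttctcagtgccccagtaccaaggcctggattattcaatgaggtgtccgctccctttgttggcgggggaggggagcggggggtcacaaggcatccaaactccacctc
The Abca1 match lies 67 to 53 bases before the start and reads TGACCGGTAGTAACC on the strand shown (GGTTACTACCGGTCA on the other). Of 32851 promoter windows of this length, 204 (0.621%) hold such a match. Among 9 windows of 6 of the genes (Soat1, Nr1h3, Abca1, Plin2, Apoe and Nr1h2, some with several starts), only the Abca1 window did. None of these 9 windows held the DR1 core GGTNANNGGTNA, found in 0.938% of all windows, or the PU.1 motif GAGGAAGT, found in 2.44%; the 3 motifs were searched without regard to overlap with each other. Lpl, Scarb1 and Abcg1 had no window in the table used.

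The 20 mice gave 74758 cells, 2193 to 6126 per mouse, with 17150296 to 102446549 unique molecular identifiers (UMIs, counted RNA molecules) per mouse. The 6 microglial markers summed to between 11201 and 21847 CPM (UMIs scaled to a total of 1000000 per mouse) in every mouse. Of the other cell types, Aqp4, Gfap and Gja1 (astrocytes) stayed below 1 CPM in each mouse and Cldn5 (endothelium) at or below 0.42 CPM. Aldoc reached 2.23 CPM and Slc1a3 took 59.6 to 163 CPM. The astrocyte sum was higher in every WT ATV:ISO mouse (136 to 165 CPM) than in any other mouse. Marker sums reached 29.1 CPM for border-associated macrophages, 27.5 for monocytes and neutrophils and 45.6 for oligodendrocytes. For neurons and lymphocytes they reached 2.05 and 0.872 CPM. The summed endothelial list moved with the groups, from 9.5 to 12.9 CPM in WT ATV:4D9 to between 37.5 and 52.2 CPM in AppSAA ATV:ISO, mostly through Flt1 and Pecam1; its part in the results was not tested. RNA per cell differed between groups. The mean was 8612 ± 711 UMIs per cell (SD, n = 4) in WT ATV:ISO, 11520 ± 860 in AppSAA ATV:ISO and 11926 ± 1656 in AppSAA 4D9, and it was 16780 ± 1725 in WT ATV:4D9 and 17116 ± 1283 in AppSAA ATV:4D9. CPM is a share of a mouse's RNA, so a gene can fall in CPM while its molecules per cell hold or rise; the main changes of the 9 genes between groups are therefore given on both scales below. Changes inside clusters and of other genes are by share unless a per-cell value is named. The groups did not overlap per cell for 65.5% of the 13287 genes with a UMI in every mouse after ATV:4D9 in WT mice, 27.9% with genotype under ATV:ISO, 54.1% and 45.8% after ATV:4D9 in AppSAA mice against ATV:ISO and 4D9, 12.8% with genotype under ATV:4D9 and 0.301% for 4D9 against ATV:ISO. Those are the genes at the smallest exact permutation p, 0.0286. The per-cell tests between groups do not use the pairing of mice by pool, for which no sign-flip test of 4 pools could go below 0.125. The count of pools is therefore given for several comparisons where the groups overlapped. The per-cell interaction does use the pairing: differences of ATV:4D9 from ATV:ISO were taken within pools and permuted between genotypes. Clusters keep the numbers 0 to 5 of the deposited annotation. Of the barcode sequences, 543 of 74212 occurred in more than 1 pool and 0 were repeated within a pool.

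Each gene was tested between groups on counts summed per mouse (edgeR quasi-likelihood test, Benjamini-Hochberg adjustment over 14058 genes, called at an adjusted p under 0.05; log2 fold changes follow with their standard error). ATV:4D9 in WT mice called 7 of the 9 genes, 2 higher and 5 lower, where 63.3% of all genes were called (30.8% higher and 32.5% lower). The AppSAA genotype under ATV:ISO called 6, with 5 higher and 1 lower, against 28.2% of all genes (14.4% higher and 13.7% lower). In AppSAA mice ATV:4D9 called 5 against ATV:ISO, 1 higher and 4 lower, where 55.1% of all genes were called (27.9% higher and 27.1% lower). The same 5 were called against 4D9, in the same directions, with 54.3% of all genes called (27.6% higher and 26.7% lower). Between the genotypes under ATV:4D9, 4 genes were called, all higher in AppSAA, against 11.8% of all genes (7.84% higher and 3.98% lower). Plain 4D9 against ATV:ISO called none of the 9 and 0% of all genes by edgeR, with 79 genes at an unadjusted p under 0.05, 1 gene called by DESeq2 and 0 by limma-voom. Those 79 are a far smaller part of 14058 genes than the 0.05 that such a p marks where nothing differs. With the pool as a block 280 genes were at such a p, also a smaller part than that. In either fit, a gene not called can therefore still differ. Without a block, the counts for ATV:4D9 in AppSAA mice lay close to that background. With the pool entered as a block, by which the mice are paired, more of all genes were called as well: 74.6% for ATV:4D9 in WT mice, 51% for genotype under ATV:ISO, 70.7% and 69.9% for ATV:4D9 in AppSAA mice against ATV:ISO and 4D9, 31.4% for genotype under ATV:4D9, 30.5% in the interaction and 0% for 4D9 against ATV:ISO. The members called were then 7, 7, 8, 7, 6, 5 and 0 of 9 in that order. Fold changes are fitted with TMM factors and so differ from ratios of the CPM printed here, by up to 0.185 on the log2 scale (genotype under ATV:ISO). The comparisons share groups and are not independent of each other.

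**Figure D1:**
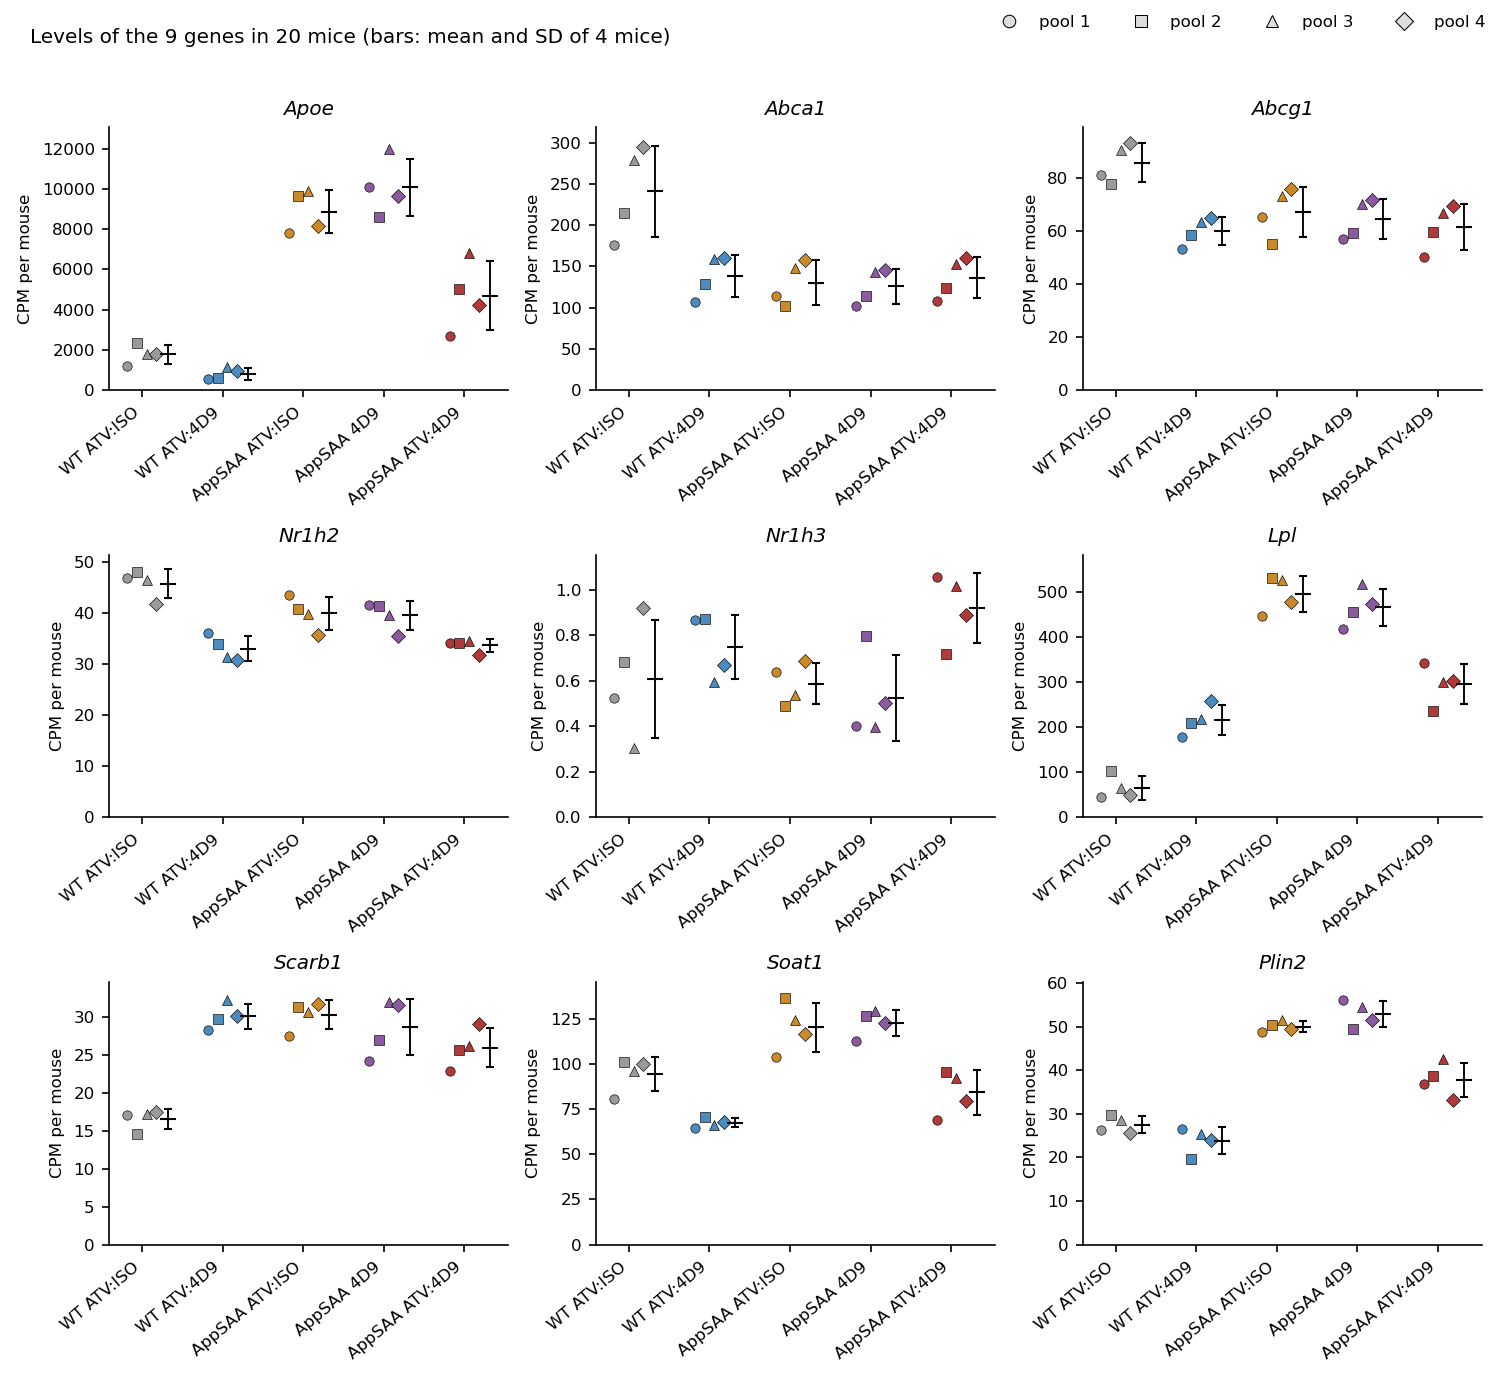
CPM (vertical axis, linear, from 0) of each of the 9 genes in the 20 mice by group (horizontal axis); points are mice and bars the group mean with its SD. Apoe, Lpl, Soat1 and Plin2 were highest in AppSAA ATV:ISO and AppSAA 4D9 mice, and Abca1 was highest in WT ATV:ISO mice (176 to 295 CPM).

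Apoe (chr7:19696109-19699188, minus strand, GENCODE M21 on GRCm38, as for the positions that follow) was the most abundant of the 9 counted molecules and followed genotype first. WT ATV:ISO mice held 1212, 2369.7, 1789 and 1782 CPM in replicates 1 to 4, and AppSAA ATV:ISO mice 7800.4, 9671, 9879 and 8149 CPM. The groups did not overlap, and Apoe was higher in AppSAA by 2.50 ± 0.25 on the log2 scale (5.66-fold, adjusted p = 1.82e-07). Per cell the means were 15.5 ± 4.3 and 103 ± 16.6 UMIs, a log2 difference of 2.76.

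ATV:4D9 lowered the share of Apoe in both genotypes. WT ATV:4D9 mice held 555, 590.4, 1172 and 953 CPM, each below every WT ATV:ISO mouse (log2 fold change -1.02 ± 0.24, adjusted p = 0.00084). AppSAA ATV:4D9 mice held 2704, 5048, 6817 and 4239 CPM, each below every AppSAA ATV:ISO mouse (-0.86 ± 0.24, adjusted p = 0.00419). AppSAA 4D9 mice held 10078, 8619, 11978 and 9634 CPM, overlapping AppSAA ATV:ISO (0.19, 95% interval -0.30 to 0.68), and against them ATV:4D9 stood at -1.05 ± 0.24 (adjusted p = 0.000869; -0.64 per cell, exact permutation p = 0.0857). Molecules per cell overlapped the ATV:ISO group in each genotype, at 14.02 ± 6.1 in WT ATV:4D9 and 79.8 ± 28.0 in AppSAA ATV:4D9. The log2 differences were -0.20 (two-sided exact permutation p = 0.743, lower in 2 of 4 pools) and -0.41 (exact permutation p = 0.229, lower in 4 of 4 pools). Against 4D9, Apoe per cell in AppSAA ATV:4D9 mice was also lower in 4 of 4 pools. Without cells under 1000 or over 25000 UMIs, the fall in share in AppSAA mice was -0.51 and was no longer called (adjusted p = 0.0634). Under ATV:4D9 Apoe was still 2.66 ± 0.25 higher in AppSAA than in WT mice (adjusted p = 3.64e-07). The effect of ATV:4D9 did not differ detectably between genotypes (interaction 0.16, 95% interval -0.53 to 0.85).

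Cells took unequal parts in the difference between genotypes. The median cell held 3.76, 5.10, 9.80 and 8.36 Apoe UMIs per 10000 in WT ATV:ISO replicates 1 to 4. In AppSAA ATV:ISO replicates it held 6.58, 13.3, 15.9 and 16.1. The ranges overlapped, but the AppSAA median was higher in every pool. The 90th percentile cell held 16.2 to 24.8 in the former and 183 to 229 in the latter. With ATV:4D9 the 90th percentile stood at 8.39 to 16.7 in WT and 109 to 224 in AppSAA mice. The 10th percentile cell followed the pool in all groups, WT included. It held 0 to 1.98 Apoe UMIs per 10000 in pools 1 and 2 and 3.14 to 6.28 in pools 3 and 4. What sets this lower level, and its part in the Apoe shares of WT mice and of clusters low in Apoe, was not tested.

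Abca1 (chr4:53030787-53159895, minus strand), the exporter that lipidates apolipoprotein E, ran the other way with genotype. WT ATV:ISO mice held 176, 214, 279 and 295 CPM, and AppSAA ATV:ISO mice 114, 102, 148 and 158 CPM, each below every WT ATV:ISO mouse. The log2 fold change was -0.70 ± 0.15 (adjusted p = 0.00115). WT ATV:4D9 mice also fell, to 107, 129, 159 and 160.1 CPM (-0.68 ± 0.15, adjusted p = 0.000447). Per cell the genotype difference was -0.46 (exact permutation p = 0.2), lower in 4 of 4 pools, and the ATV:4D9 difference in WT mice turned to 0.18 (exact permutation p = 0.571), higher in 4 of 4 pools.

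In AppSAA mice ATV:4D9 left 108, 125, 153 and 161 CPM, overlapping ATV:ISO (0.14, 95% interval -0.17 to 0.44; called at 0.14 with adjusted p = 0.0147 when the pool entered the fit as a block, as was the difference from 4D9, 0.17 with adjusted p = 0.00365). Per cell Abca1 was 0.64 higher than under ATV:ISO (exact permutation p = 0.0571) and 0.64 higher than under 4D9 (exact permutation p = 0.0857), in 4 of 4 pools each. The effect of ATV:4D9 therefore differed between genotypes, with an interaction of 0.81 ± 0.21 (adjusted p = 0.0156), where 9.14% of all genes (3.79% higher and 5.35% lower) and 3 of the 9 were called. Without AppSAA ATV:4D9 replicate 4 it was 0.70 and no longer called (adjusted p = 0.0556). On the per-cell scale the interaction, taken within pools, was 0.47 (exact permutation p = 0.0286, the smallest this design allows, reached by 41.3% of all genes).

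Abcg1 (chr17:31057675-31117988, plus strand; the small gene model Gm25447 overlaps it on the same strand) exports sterol to already lipidated particles. It was lower after ATV:4D9 in WT mice, 59.8 ± 5.3 against 85.5 ± 7.3 CPM, with no overlap (-0.40 ± 0.08, adjusted p = 0.000267), while the per-cell difference was 0.44 (exact permutation p = 0.0857; higher in 4 of 4 pools). AppSAA ATV:ISO mice averaged 67.1 ± 9.4 CPM, a fitted difference of -0.17 from WT ATV:ISO that was called only with the pool as a block (adjusted p = 0.00267). AppSAA 4D9 mice averaged 64.3 ± 7.4 CPM and AppSAA ATV:4D9 mice 61.5 ± 8.6 CPM. With the block, 2 further Abcg1 differences were called: between genotypes under ATV:4D9 (0.17, adjusted p = 0.00346) and in the interaction (0.34, adjusted p = 0.000296, against 0.0715 without the block). The order of the group means for both exporters put WT ATV:ISO on top, and the other 4 groups overlapped each other.

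The liver X receptors were far apart in counts. Nr1h2 (chr7:44549616-44553951, minus strand) lay between 30.8 and 48.0 CPM in all mice, and Nr1h3 (chr2:91184061-91202834, minus strand; Gm13783 overlaps it on the same strand) between 0.307 and 1.05 CPM. These are counts of 3′ ends, not levels per length. Nr1h2 fell after ATV:4D9 in WT mice, from 45.8 ± 2.8 to 33.1 ± 2.5 CPM (-0.35 ± 0.11, adjusted p = 0.0064), but rose per cell from 0.394 ± 0.019 to 0.553 ± 0.032 UMIs (log2 difference 0.49, exact permutation p = 0.0286), in every mouse on each scale. In AppSAA mice it stood at 40.02 ± 3.2 CPM under ATV:ISO and 33.7 ± 1.3 CPM under ATV:4D9, a fitted difference of -0.18 that was called only with the pool as a block (-0.17, adjusted p = 0.00105, with the same size and adjusted p = 0.00141 against 4D9), and per cell it was higher in every mouse (0.33, exact permutation p = 0.0286). The block also called Nr1h2 between genotypes under ATV:4D9 (0.17, adjusted p = 0.00464) and in the interaction (0.18, adjusted p = 0.0283).

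Nr1h3 was called higher after ATV:4D9 in AppSAA mice on the share scale, which without the pool as a block held for no other gene of the 9. AppSAA ATV:ISO mice held 0.639, 0.488, 0.537 and 0.688 CPM and AppSAA ATV:4D9 mice 1.05, 0.716, 1.02 and 0.888 CPM, which did not overlap (0.73 ± 0.26, adjusted p = 0.0229). Against AppSAA 4D9 it was higher by 0.87 ± 0.27 (adjusted p = 0.0103), with overlap. Per cell the differences were 1.21 and 1.38 (exact permutation p = 0.0286 for each). Its groups rest on 55 to 261 UMIs in all, and leaving out AppSAA ATV:4D9 replicate 1, AppSAA ATV:ISO replicate 2 or AppSAA ATV:ISO replicate 3 ended the first call (adjusted p = 0.0839, 0.0555 and 0.0688). In WT mice it went from 0.608 ± 0.258 to 0.750 ± 0.141 CPM, which was not called (adjusted p = 0.265), and per cell it was higher in every WT ATV:4D9 mouse (1.35, exact permutation p = 0.0286).

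**Figure D2:**
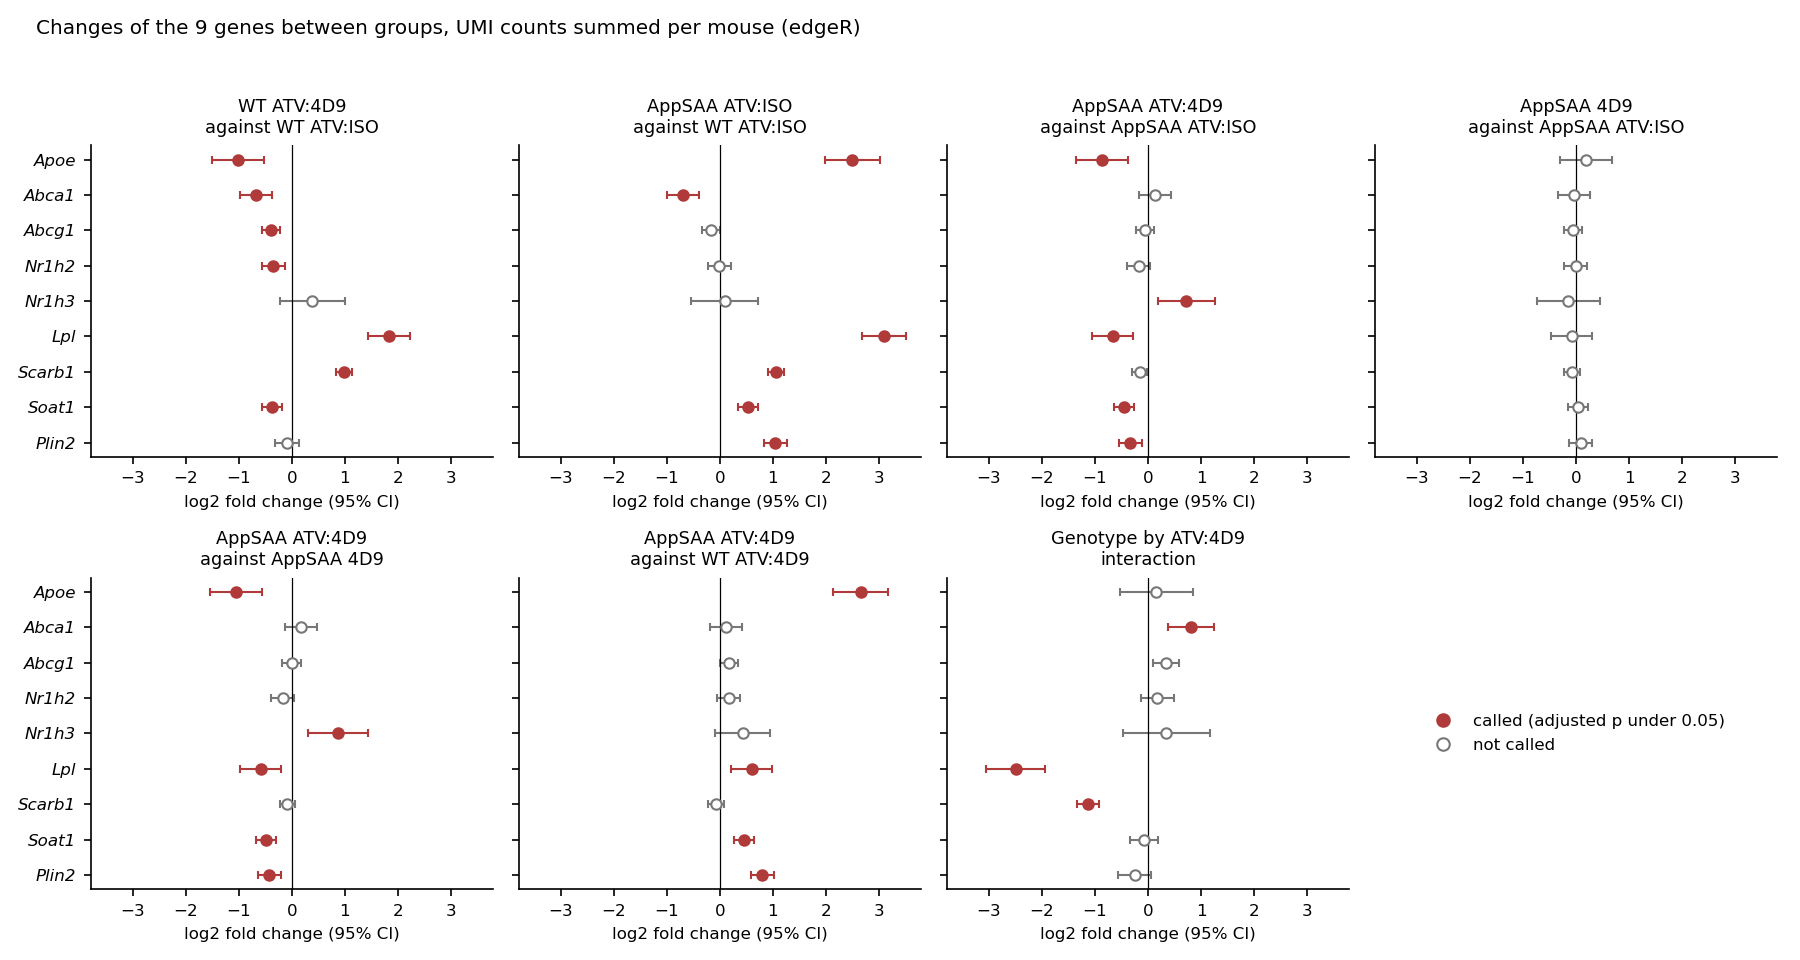
Log2 fold changes (horizontal axis) with 95% intervals for each gene (vertical axis) in the group comparisons; filled points were called at an adjusted p under 0.05. Apoe and Lpl moved up with AppSAA by 2.50 and 3.10, and the intervals for 4D9 against ATV:ISO all cross 0.

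Lpl (chr8:68880491-68907448, plus strand) had the largest fold change of the 9 between groups. WT ATV:ISO mice held 45.0, 102, 65.4 and 50.1 CPM and AppSAA ATV:ISO mice 446, 530.1, 525 and 477 CPM (3.10 ± 0.20, adjusted p = 5.44e-10). ATV:4D9 raised it in WT mice to 177, 209.7, 219 and 259 CPM (1.83 ± 0.19, adjusted p = 7.85e-08) and lowered it in AppSAA mice to 342, 235, 300.0 and 303 CPM (-0.67 ± 0.19, adjusted p = 0.00476), with no overlap in any of these. The interaction was -2.50 ± 0.27 (adjusted p = 9.59e-06), and -2.93 per cell (exact permutation p = 0.0286). Per cell the rise in WT mice was 2.74 (exact permutation p = 0.0286), while the AppSAA means were 5.71 ± 0.75 and 5.09 ± 1.08 UMIs and overlapped (-0.18, exact permutation p = 0.457; lower in 3 of 4 pools). The genotype difference under ATV:ISO was 3.41 per cell (exact permutation p = 0.0286). AppSAA 4D9 mice held 418, 455, 516 and 472 CPM, all above AppSAA ATV:4D9 (-0.59 ± 0.19 for ATV:4D9, adjusted p = 0.0116; -0.14 per cell, exact permutation p = 0.543). The AppSAA ATV:4D9 and WT ATV:4D9 groups overlapped and differed by 0.60 ± 0.19 (adjusted p = 0.0389; 0.48 per cell, exact permutation p = 0.114); leaving out any of AppSAA ATV:4D9 replicates 1, 3 and 4 or WT ATV:4D9 replicates 1, 2 and 3 ended that call.

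Scarb1 (chr5:125277087-125341094, minus strand; Gm42633 overlaps it on the same strand) rose with either factor alone and was not called higher with both than with 1. WT ATV:ISO mice held 17.0, 14.5, 17.1 and 17.4 CPM, WT ATV:4D9 mice 28.2, 29.7, 32.2 and 30.1 CPM, and AppSAA ATV:ISO mice 27.4, 31.3, 30.6 and 31.7 CPM. Both groups lay above every WT ATV:ISO mouse, by 0.98 ± 0.07 (adjusted p = 4.69e-10) and 1.06 ± 0.07 (adjusted p = 1.15e-09). AppSAA ATV:4D9 mice held 22.8, 25.7, 26.1 and 29.0 CPM (-0.16 from AppSAA ATV:ISO, adjusted p = 0.0613, and 0.0186 with the pool as a block), and the interaction was -1.13 ± 0.10 (adjusted p = 7.69e-07; -1.48 per cell, exact permutation p = 0.0286). The difference from AppSAA ATV:ISO was also called by DESeq2 (adjusted p = 0.0412). Per cell the rises over WT ATV:ISO were 1.82 with ATV:4D9 and 1.29 with genotype (exact permutation p = 0.0286 for each), and AppSAA ATV:4D9 was higher than AppSAA ATV:ISO in every mouse (0.34, exact permutation p = 0.0286).

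Soat1 (chr1:156424525-156474331, minus strand; Gm37648 overlaps it on the other strand) rose with genotype and fell with ATV:4D9 as a share of RNA. It averaged 94.5 ± 9.5 CPM in WT ATV:ISO, 120.2 ± 13.6 in AppSAA ATV:ISO and 122.8 ± 7.2 in AppSAA 4D9 mice (0.54 ± 0.09 for genotype, adjusted p = 0.000115). ATV:4D9 brought it to 67.5 ± 2.6 CPM in WT (-0.37 ± 0.09, adjusted p = 0.00121) and 84.2 ± 12.2 in AppSAA mice (-0.45 ± 0.09, adjusted p = 0.000248), in every mouse against its control group. Per cell, the WT difference was 0.48 upward (exact permutation p = 0.0286) and the AppSAA difference 0.053 (exact permutation p = 0.714; higher in 3 of 4 pools), and genotype under ATV:ISO gave 0.77 (exact permutation p = 0.0286). Against 4D9 the share fell by 0.49 ± 0.09 (adjusted p = 0.000111; -0.026 per cell, exact permutation p = 0.886). Between genotypes under ATV:4D9 it was 0.45 ± 0.09 higher in AppSAA, with overlap (adjusted p = 0.00139, and 0.34 per cell with exact permutation p = 0.0571). The interaction was -0.081 by share and not called (adjusted p = 0.774). Per cell it was -0.43 (exact permutation p = 0.0286, reached by 41.3% of all genes).

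Plin2 (chr4:86648386-86670060, minus strand) rose with genotype. WT ATV:ISO mice held 26.2, 29.6, 28.7 and 25.6 CPM, AppSAA ATV:ISO mice 48.7, 50.4, 51.6 and 49.4 CPM, and AppSAA 4D9 mice 56.1, 49.4, 54.5 and 51.4 CPM. The genotype difference was 1.05 ± 0.11 (adjusted p = 3.03e-07), with every AppSAA mouse above every WT mouse. After ATV:4D9, WT mice averaged 23.9 ± 3.0 CPM (adjusted p = 0.503), and AppSAA mice held 36.8, 38.8, 42.5 and 33.1 CPM, each below every AppSAA ATV:ISO mouse (-0.33 ± 0.10, adjusted p = 0.0105). That last call was lost without AppSAA ATV:4D9 replicate 4 (adjusted p = 0.0565) and without cells under 1000 or over 25000 UMIs (adjusted p = 0.0639). Against 4D9 the share of Plin2 fell by 0.42 ± 0.10 (adjusted p = 0.00192; 0.041 per cell, exact permutation p = 0.686). Between genotypes under ATV:4D9 it was 0.80 ± 0.10 higher in AppSAA (adjusted p = 2.02e-05; 0.70 per cell, exact permutation p = 0.0286). Per cell Plin2 stood at 0.237 ± 0.022 and 0.402 ± 0.075 UMIs in WT mice and at 0.577 ± 0.052 and 0.645 ± 0.064 UMIs in AppSAA mice under ATV:ISO and ATV:4D9.

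On the per-cell scale 8 of the 9 genes had a higher mean after ATV:4D9 in WT mice, with Apoe the exception, where 90.1% of all genes did. The groups did not overlap for 6 of the 9, beside 65.5% of all genes in either direction. In AppSAA mice 7 of 9 had a higher mean than under ATV:ISO, with Apoe and Lpl the exceptions, where 83.9% of all genes did. There 3 of the 9 did not overlap, beside 54.1% of all genes in either direction. Mean RNA per cell was itself 1.95-fold higher in WT ATV:4D9 than in WT ATV:ISO and 1.49-fold higher in AppSAA ATV:4D9 than in AppSAA ATV:ISO.

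**Figure D3:**
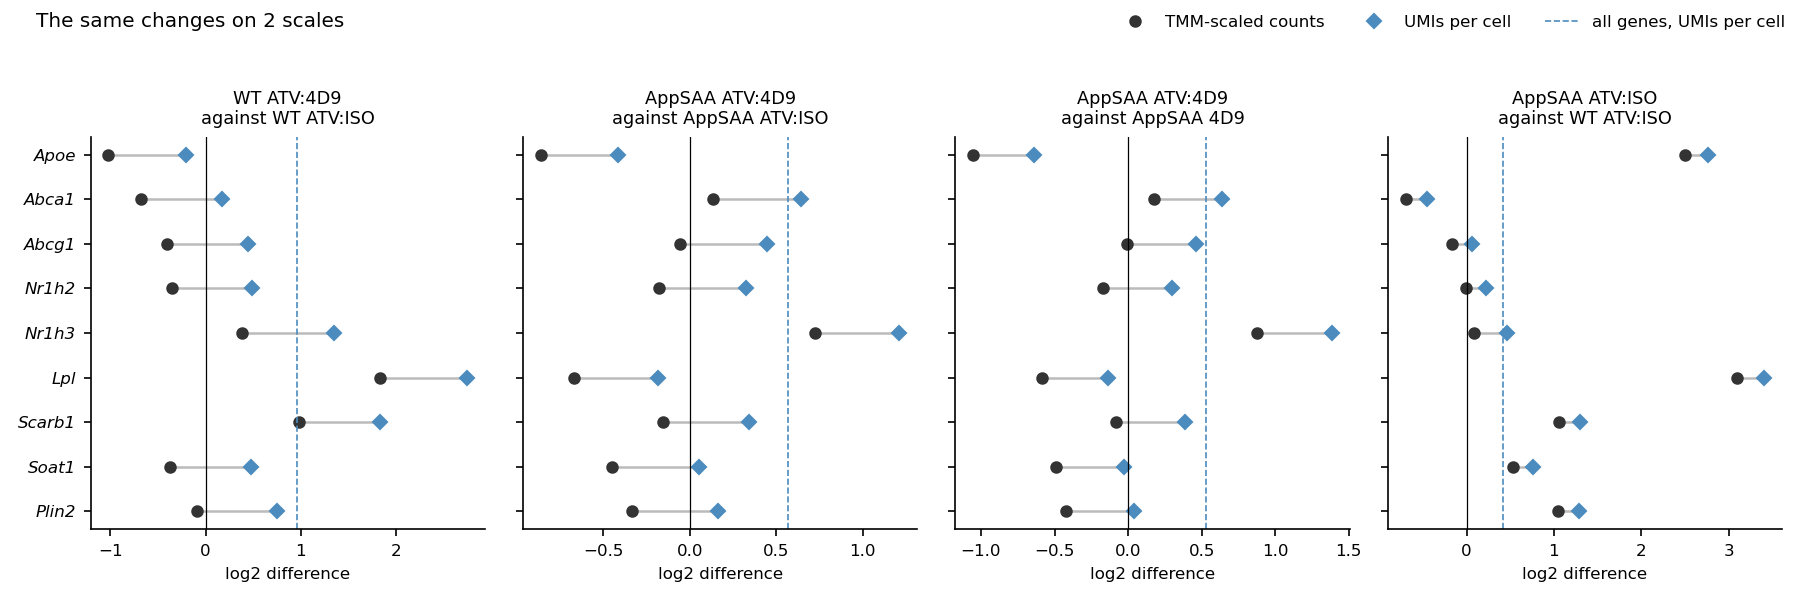
Log2 differences of the 9 genes (horizontal axis) in 4 comparisons (panels), as a share of RNA (edgeR) and as UMIs per cell. The per-cell points lie to the right of the share points after ATV:4D9, and Apoe after ATV:4D9 in WT mice is at -1.02 by share and -0.20 per cell.

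The 6 clusters took different shares of each group. Clusters 0 and 3 together held most cells of WT ATV:ISO mice (60.4% and 35.8%), cluster 1 held 38.3% of cells in AppSAA ATV:ISO and 39.4% in AppSAA 4D9 but 13.5% in AppSAA ATV:4D9 mice, and clusters 2 and 4 held 47.8% and 39.95% of cells in WT ATV:4D9 and 35.4% and 22.4% in AppSAA ATV:4D9 mice. Cluster 5 held 22.4% of cells in AppSAA ATV:4D9 and at most 4.21% on average elsewhere. A change per mouse can thus come from the share of a cluster as well as from the level inside it. Clusters were made from expression, so differences between them are described without a test; sums of at least 20 cells were used (109 sums), with means and SD over mice.

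Apoe spread most between clusters. The means that follow are over all mice with a sum, and the clusters drew on different groups: cluster 1 had 1 sum from WT ATV:4D9, cluster 5 had 1 from WT ATV:ISO and cluster 4 had none from WT ATV:ISO. Apoe averaged 17795 ± 5891 CPM in cluster 1 (n = 16), 5190.3 ± 2772 in cluster 5 (n = 17), and 2417 ± 1539.9 in cluster 2, 2339 ± 1647 in cluster 4, 2002 ± 953 in cluster 3 and 1225 ± 465 in cluster 0. Cluster 1 held the highest mean in each of the 5 groups, but the order of the others changed with the group: in AppSAA ATV:4D9 mice cluster 3 (3348 CPM) and cluster 0 (1748 CPM) lay above cluster 2 (1374 CPM) and cluster 4 (1083 CPM). Lpl averaged most in cluster 1 too, at 707 ± 273 CPM, then cluster 2 (558 ± 333), cluster 4 (375 ± 166) and cluster 5 (262 ± 101), and it was low in clusters 3 (57.2 ± 22.1) and 0 (34.2 ± 13.8). Within groups cluster 1 was highest for Lpl in 4 of 5, and in AppSAA ATV:ISO mice cluster 2 held 915 CPM against 844 in cluster 1. Plin2 ran from 24.2 ± 3.9 in cluster 0 to 67.4 ± 13.7 in cluster 1, and Soat1 also averaged most in cluster 1 (152 ± 32.5); each was highest there in 4 of 5 groups, and in cluster 5 in WT ATV:4D9 mice. Abca1 averaged 217 ± 48.0 CPM in cluster 0, the highest cluster in each of the 5 groups, 107 ± 38.9 in cluster 1 and 87.0 ± 37.0 in cluster 4, the lowest in all 4 groups with a sum there. Abcg1 averaged least in cluster 4 (42.2 ± 7.9) and most in cluster 5 (97.8 ± 15.01; highest in 4 of 5 groups), and Scarb1 averaged most in cluster 4 (36.9 ± 10.3; highest in 3 of 4 groups). Nr1h2 ran from 45.0 CPM in cluster 0 (7632 UMIs per cell) to 29.5 CPM in cluster 4 (20599 UMIs per cell).

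**Figure D4:**
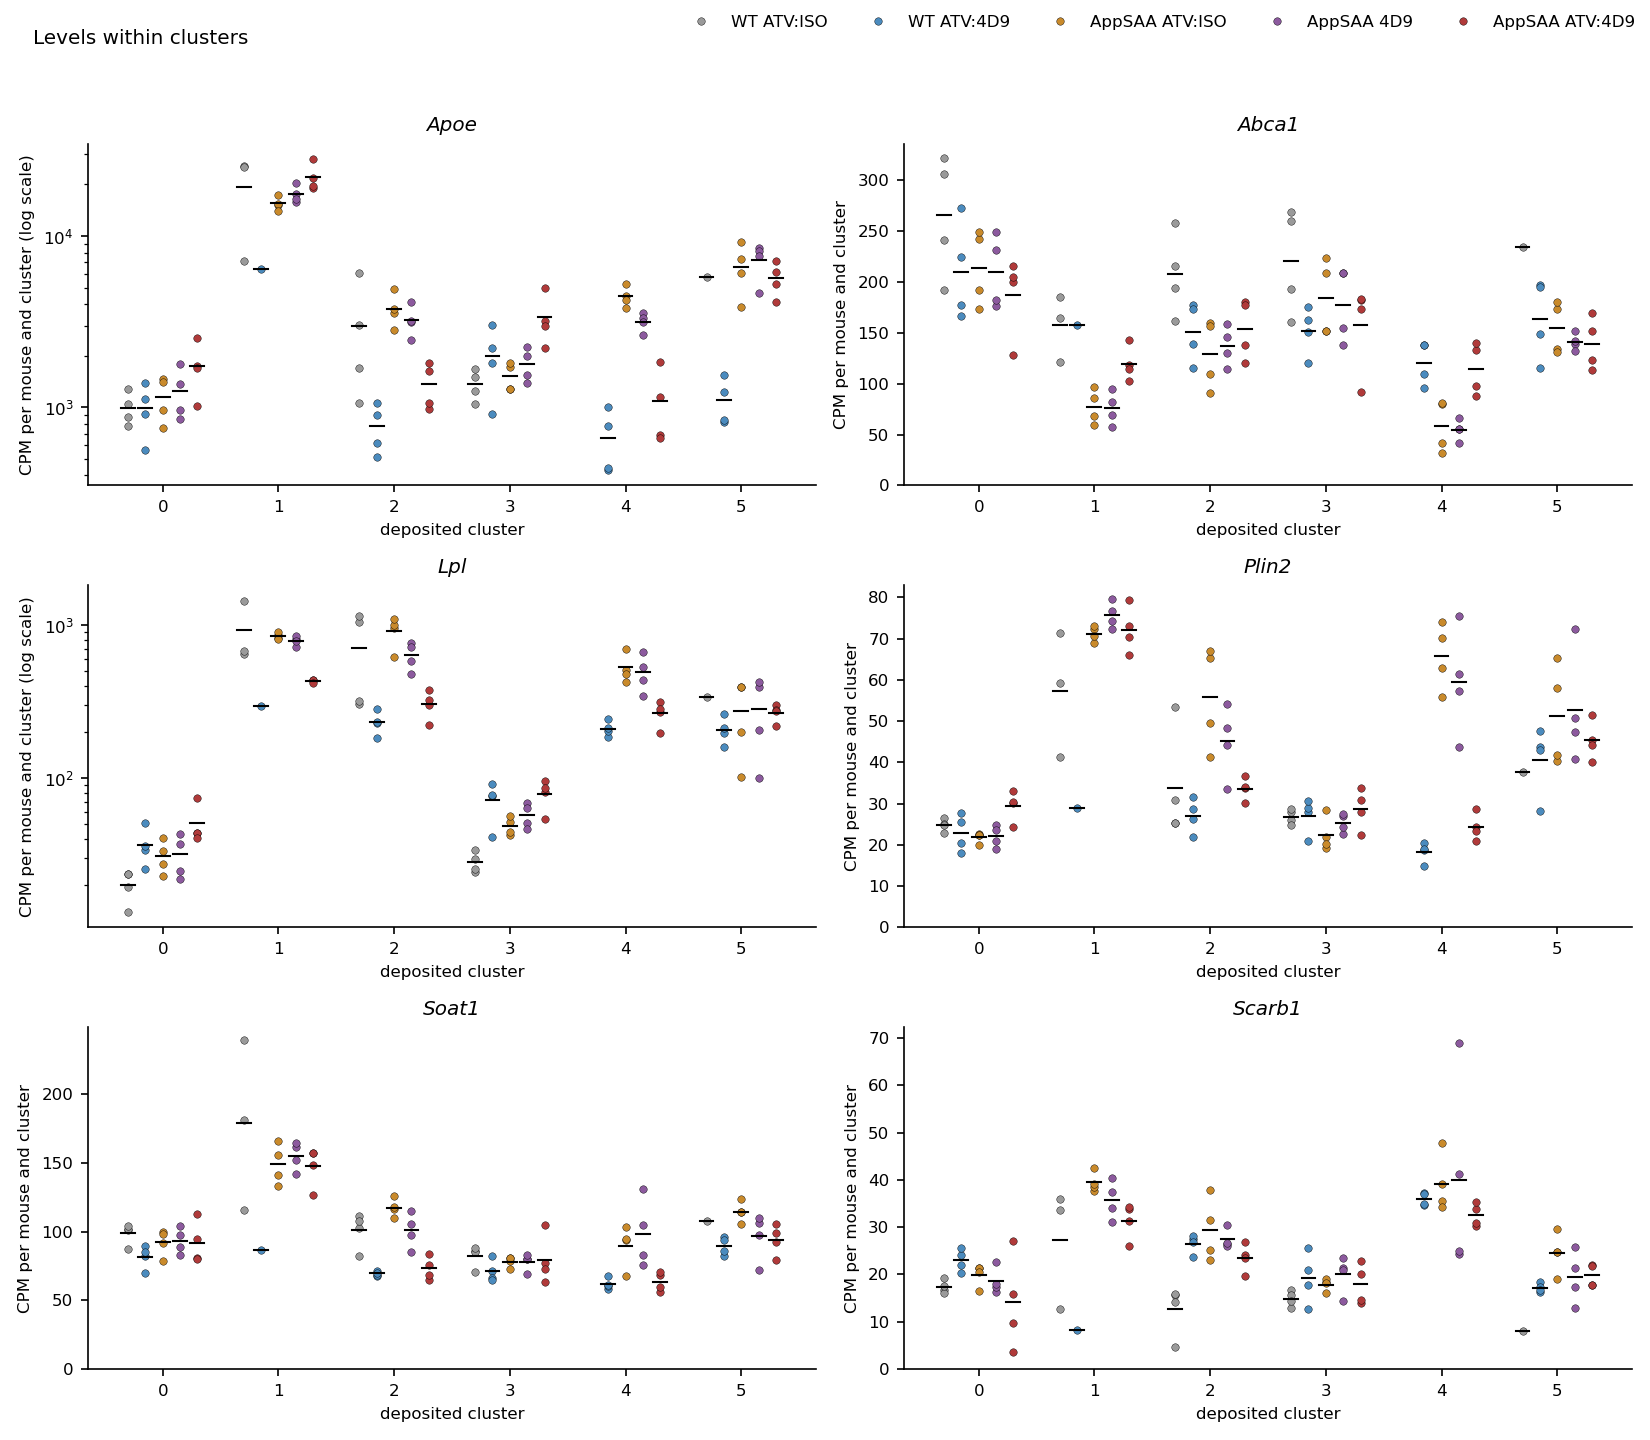
CPM of Apoe, Abca1, Lpl, Plin2, Soat1 and Scarb1 by cluster and group, over mice with a sum of at least 20 cells. Points are mice and bars are means, and the Apoe and Lpl axes are logarithmic. Apoe was highest in cluster 1 in each of the 5 groups and Lpl and Plin2 in 4 of 5, and Abca1 was lowest in cluster 4 in the 4 groups with a sum there.

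Inside clusters, 37 of 268 tests of the 9 genes were called in 33 comparisons (edgeR, adjusted over the genes tested in that cluster), beside 4.52% of all gene tests in those comparisons. The groups overlapped in 5 of the calls between groups: Apoe in cluster 2 after ATV:4D9 in WT mice, Apoe in cluster 3 against 4D9, and, for ATV:4D9 against ATV:ISO in AppSAA mice, Abcg1 in cluster 1, Lpl in cluster 3 and Soat1 in cluster 4. Apoe was called higher in 3 and lower in 5, Lpl higher in 3 and lower in 7, Abca1 higher in 4 and lower in 1, Soat1 lower in 5, Plin2 higher in 1 and lower in 3, Scarb1 higher in 2 and lower in 1, Abcg1 higher in 2, and Nr1h2 in none. Nr1h3 passed the filter on low counts only in cluster 1, where it was not called in any of 4 comparisons. It was not tested in the other clusters, and the 8 genes counted there leave it out. With the pool as a block there were 64 calls, with 32 in each direction, all 37 among them, beside 8.66% of all gene tests; the 27 made only with the block are given with each cluster. Of the 37, 16 were called without each of the 4 pools, in fits that used no block.

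**Figure D5:**
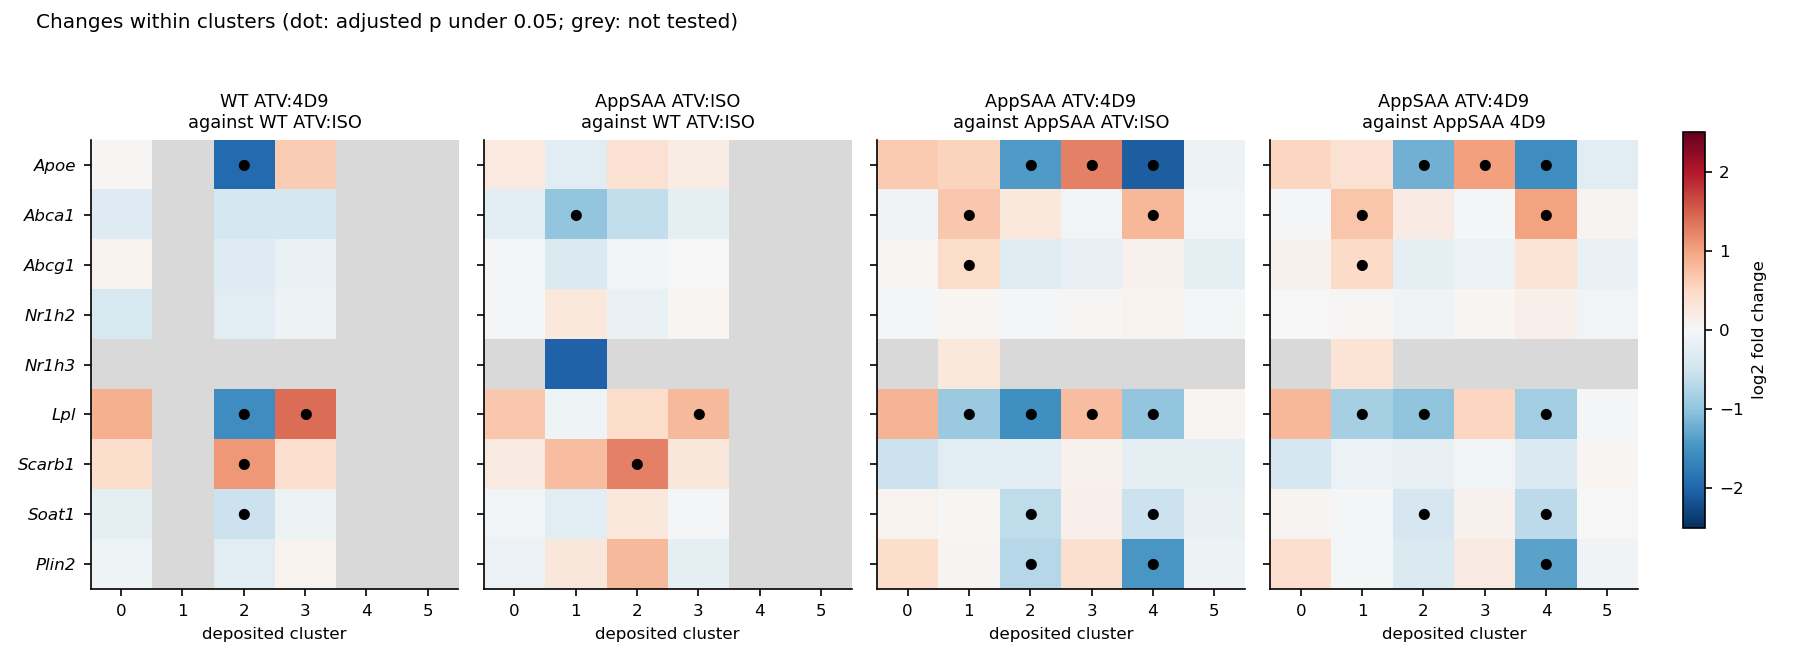
Log2 fold changes of the 9 genes (rows) in each cluster and comparison (columns), with grey where a gene was not tested. A dot marks a value called at an adjusted p under 0.05. In cluster 4 under ATV:4D9 in AppSAA mice, Apoe (-2.06) and Plin2 (-1.45) fell while Abca1 (0.82) rose.

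In cluster 4, Apoe and Plin2 fell and Abca1 rose with ATV:4D9 in AppSAA mice, on control sums of few cells (27 to 74 per mouse in AppSAA ATV:ISO and 26 to 54 in AppSAA 4D9). ATV:4D9 called 5 of 8 genes against ATV:ISO in AppSAA mice, where 24.5% of all genes were called. Apoe held 3807, 4475, 5264 and 4229 CPM under ATV:ISO and 687, 665, 1836 and 1146 CPM under ATV:4D9 (-2.06 ± 0.26, adjusted p = 2.78e-06), with no overlap. Plin2 went from 65.7 ± 8.0 to 24.4 ± 3.2 CPM (-1.45 ± 0.15, adjusted p = 3.13e-07), Lpl from 528 ± 117 to 266 ± 49.2 CPM (-0.99 ± 0.17, adjusted p = 0.000154) and Soat1 from 89.9 ± 15.4 to 63.7 ± 7.1 CPM (-0.53 ± 0.14, adjusted p = 0.00669; lost without pool 4 and, at adjusted p = 0.0555, without cells under 1000 or over 25000 UMIs). Abca1 rose, from 31.9, 41.4, 79.9 and 80.6 CPM to 87.3, 97.6, 133 and 139.5 CPM (0.82 ± 0.19, adjusted p = 0.00287). Every Abca1 value under ATV:4D9 exceeded every value under ATV:ISO, so Abca1 and Apoe parted in the same sums. Against 4D9 the same 5 genes were called the same way, where 22.1% of all genes were called: Apoe -1.55 ± 0.25, Plin2 -1.34 ± 0.16, Lpl -0.87 ± 0.17, Soat1 -0.65 ± 0.14 and Abca1 1.01 ± 0.20. The Lpl difference from 4D9 was -0.39 and not called without cells under 1000 or over 25000 UMIs (adjusted p = 0.27). In WT ATV:4D9 mice cluster 4 held 663 ± 279 CPM of Apoe, 120.3 ± 21.1 of Abca1 and 18.3 ± 2.4 of Plin2. Plin2 was higher in AppSAA under ATV:4D9 by 0.49 ± 0.12 (adjusted p = 0.0238), 1 of 8 genes called against 2.76% of all genes, and that call was lost without pool 1, 2 or 3, with at least 50 cells per sum (adjusted p = 0.0554) and without cells under 1000 or over 25000 UMIs (adjusted p = 0.178). The block also called Apoe (0.77 ± 0.16, adjusted p = 0.003) and Lpl (0.41 ± 0.13, adjusted p = 0.0383) higher in AppSAA under ATV:4D9, with 9.79% of all genes called.

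Cluster 2 moved likewise for Apoe, Lpl, Soat1 and Plin2. In AppSAA mice ATV:4D9 called 4 of 8 genes lower against ATV:ISO, where 13.2% of all genes were called. Apoe held 2818, 3547, 3726 and 4883 CPM under ATV:ISO and 982, 1057, 1818 and 1637 CPM under ATV:4D9 (-1.41 ± 0.34, adjusted p = 0.00598), and Lpl 612, 960, 994 and 1096 CPM against 375, 221, 301 and 324 CPM (-1.53 ± 0.29, adjusted p = 0.00072), both without overlap. Soat1 fell by 0.64 ± 0.10 (adjusted p = 6.81e-05) and Plin2 by 0.72 ± 0.16 (adjusted p = 0.00427; lost without pool 3 or 4). Against 4D9, 3 of 8 were called lower beside 13.4% of all genes: Apoe (-1.21 ± 0.34), Lpl (-1.01 ± 0.29) and Soat1 (-0.41 ± 0.10). Without a pool these were lost as well, Apoe without pool 2, Lpl without pool 2 or 3 and Soat1 without pool 1, 3 or 4, and Apoe was not called without cells under 1000 or over 25000 UMIs (adjusted p = 0.083) and Soat1 with no filter (adjusted p = 0.0623). In WT mice, whose ATV:ISO sums held 23 to 42 cells, 4 of 8 were called beside 5.88% of all genes: Apoe went from 6052, 3041, 1056 and 1700 CPM to 509, 620, 1066 and 902 CPM (-1.93 ± 0.34, adjusted p = 0.00106), with overlap and no fall in pool 3, Lpl fell by 1.56 ± 0.30 (adjusted p = 0.00238) and Soat1 by 0.53 ± 0.12 (adjusted p = 0.00904), and Scarb1 rose by 1.09 ± 0.24 (adjusted p = 0.00771). Without pool 2 the last 3 of these were lost, and so were Lpl without pool 3 and Soat1 and Scarb1 without pool 4. Soat1 was not called with no filter (adjusted p = 0.0559), nor Scarb1 by limma-voom (adjusted p = 0.0838). Lpl was thus lower inside cluster 2 in WT mice, whereas it was higher in the sums over all cells. Scarb1 was also called for genotype under ATV:ISO (1.25 ± 0.26, adjusted p = 0.0348, beside 0.281% of all genes) and in the interaction (-1.35 ± 0.28, adjusted p = 0.0413, beside 0.156%), and neither call held without any 1 of the pools, by limma-voom, or without cells under 1000 or over 25000 UMIs. No gene of the 8 was called between genotypes under ATV:4D9, beside 2.07% of all genes; with the block Plin2 was (0.39 ± 0.10, adjusted p = 0.0111, beside 7.38%). The block added 5 calls of Abca1 in cluster 2: lower after ATV:4D9 in WT mice (-0.45 ± 0.09, beside 11% of all genes) and with genotype under ATV:ISO (-0.64 ± 0.10, beside 1.33%), higher after ATV:4D9 in AppSAA mice against ATV:ISO (0.29 ± 0.08, beside 24.8%) and 4D9 (0.22 ± 0.08, beside 23.1%), and an interaction of 0.74 ± 0.12 (adjusted p = 0.00173, beside 0.561%). It also called Abcg1 lower after ATV:4D9 against ATV:ISO in AppSAA mice (-0.28 ± 0.10, adjusted p = 0.0316).

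In cluster 3 the direction was the reverse. Apoe held 1281, 1272, 1711 and 1816 CPM under ATV:ISO in AppSAA mice and 3198, 2229, 4978 and 2988 CPM under ATV:4D9 (1.26 ± 0.25, adjusted p = 0.00259), each above every control, and it was 1.02 ± 0.25 higher than under 4D9 (adjusted p = 0.0169; lost without pool 1, 3 or 4). Lpl rose from 48.9 ± 6.8 to 79.2 ± 17.7 CPM (0.77 ± 0.18, adjusted p = 0.00996; lost without pool 3 or 4). These were 2 of 8 genes against ATV:ISO beside 4.33% of all genes, and 1 of 8 against 4D9 beside 3.52%. In WT mice Lpl rose with ATV:4D9 from 28.4 ± 4.3 to 71.8 ± 21.7 CPM (1.40 ± 0.18, adjusted p = 2.08e-05), the 1 gene of 8 called beside 6.17% of all genes. Genotype under ATV:ISO raised it by 0.80 ± 0.16 (adjusted p = 0.0301), also 1 of 8, beside 0.189% of all genes, a call lost without pool 2, 3 or 4. No gene of the 8 was called in cluster 3 between genotypes under ATV:4D9 or in the interaction, where 0.163% and 0% of all genes were. With the block, Apoe was called between genotypes under ATV:4D9 (0.83 ± 0.17, adjusted p = 0.0058, beside 1.7% of all genes) and after ATV:4D9 in WT mice (0.54 ± 0.17, adjusted p = 0.0228, beside 17.5%). The block called Abca1 lower after ATV:4D9 in WT mice (-0.42 ± 0.07, adjusted p = 6.26e-05) and with genotype under ATV:ISO (-0.23 ± 0.06, adjusted p = 0.0312, beside 1.64%). In AppSAA mice it called Plin2 higher than under ATV:ISO (0.46 ± 0.13, adjusted p = 0.0177, beside 12.6%) and Lpl higher than under 4D9 (0.49 ± 0.12, adjusted p = 0.00596, beside 11.2%). WT means of Apoe in cluster 3 were 1366 ± 272 CPM under ATV:ISO and 1987 ± 871 CPM under ATV:4D9. Clusters 0 and 3 held 2.52% and 3.78% of cells in AppSAA ATV:4D9 mice, so these levels describe few cells there.

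In cluster 1, where Apoe was most abundant, Apoe was not called in any comparison: it averaged 15487 ± 1440 CPM under ATV:ISO, 17554 ± 1938 under 4D9 and 22104 ± 4143 under ATV:4D9 in AppSAA mice. ATV:4D9 called 3 of 9 genes there against ATV:ISO, beside 1.34% of all genes. Abca1 held 68.0, 59.4, 85.6 and 96.2 CPM under ATV:ISO and 102, 118, 114 and 143 CPM under ATV:4D9 (0.68 ± 0.14, adjusted p = 0.0119), Abcg1 rose from 54.4 ± 7.5 to 72.7 ± 10.3 CPM (0.47 ± 0.10, adjusted p = 0.0231), and Lpl fell from 844 ± 37.5 to 431 ± 11.2 CPM (-0.92 ± 0.19, adjusted p = 0.0119). The same 3 were called against 4D9, beside 1.63% of all genes, at 0.70 ± 0.14, 0.47 ± 0.10 and -0.83 ± 0.19. Each of these 6 calls was lost without at least 2 of the 4 pools, with the direction kept, in fits that used no block. With all pools and the pool as a block, all 6 were called. Against ATV:ISO the adjusted p was then 3.11e-06 for Abca1, 5.98e-05 for Abcg1 and 0.000357 for Lpl. The block added Scarb1, lower after ATV:4D9 against ATV:ISO (-0.28 ± 0.07, adjusted p = 0.0168, beside 7.25% of all genes). Under ATV:ISO, Abca1 was lower in AppSAA than in the 3 WT mice with a sum (77.3 ± 16.6 against 157 ± 32.7 CPM, -0.996 ± 0.18, adjusted p = 0.00703), 1 of 9 genes beside 1.23% of all genes; without pool 2 it was not called.

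In cluster 5 Apoe was called for genotype. It held 819, 842, 1234 and 1535 CPM in WT ATV:4D9 and 4109, 6173, 7104 and 5218 CPM in AppSAA ATV:4D9 mice (2.42 ± 0.23, adjusted p = 2.7e-07), 1 of 8 genes called beside 6.43% of all genes. The block also called Abcg1 there, lower in AppSAA (-0.31 ± 0.08, adjusted p = 0.00767, beside 14.7% of all genes). In AppSAA mice none of 8 was called for ATV:4D9 against ATV:ISO or 4D9, where 27% and 14.5% of all genes were; Apoe averaged 6622 ± 2274 CPM under ATV:ISO, 7243 ± 1754 under 4D9 and 5651 ± 1284 under ATV:4D9. In cluster 0 none of 8 was called in 7 comparisons. Of all genes, 1.47% were called there for ATV:4D9 in WT mice, 0.274% for genotype under ATV:ISO, 0.667% and 0.65% for ATV:4D9 in AppSAA mice against ATV:ISO and 4D9, 0.154% for genotype under ATV:4D9, and 0% for 4D9 against ATV:ISO and for the interaction. With the pool as a block, 10 were called in cluster 0, 7 higher and 3 lower. Lpl was higher after ATV:4D9 in WT (0.96 ± 0.17, adjusted p = 0.000134, beside 8.96% of all genes) and AppSAA mice (0.90 ± 0.16 against ATV:ISO, adjusted p = 0.000116, beside 5.27%, and 0.87 ± 0.16 against 4D9, beside 4.62%), and with genotype under ATV:ISO (0.67 ± 0.09, adjusted p = 2.73e-06, beside 4.61%). Apoe was higher after ATV:4D9 in AppSAA mice (0.61 ± 0.13 against ATV:ISO, adjusted p = 0.00278, and 0.51 ± 0.13 against 4D9) and with genotype under ATV:4D9 (0.84 ± 0.15, adjusted p = 0.000306, beside 1.86%). Abca1 was lower after ATV:4D9 in WT mice (-0.32 ± 0.07, adjusted p = 0.00207) and with genotype under ATV:ISO (-0.27 ± 0.05, adjusted p = 0.000225), and Nr1h2 was lower after ATV:4D9 in WT mice (-0.41 ± 0.12, adjusted p = 0.0275). Plain 4D9 against ATV:ISO called none of the genes tested in any cluster (all 9 in cluster 1, and 8 without Nr1h3 in the others), where 0% of all genes were called.

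Among 75 other genes of lipid handling chosen for the comparison, 63 were tested. Genotype under ATV:ISO called 23 higher and 11 lower (54.0%, beside 28.2% of all genes; median log2 fold change 0.09 against -0.06 over all genes). Of 12 receptor and uptake genes, 8 rose, 1 fell (Sorl1, -0.34, named after its value was seen) and 3 were not called; the rises were led by the fatty acid binding proteins Fabp5 (4.04 ± 0.34, adjusted p = 2.28e-08) and Fabp3 (3.87 ± 0.21, adjusted p = 5.1e-11). Trem2 rose by 0.76 ± 0.09 (adjusted p = 3.82e-06) and Npc2, which hands cholesterol to Npc1 in the lysosome, by 1.01 ± 0.10 (adjusted p = 2.53e-07). Ch25h, which makes the oxysterol 25-hydroxycholesterol, rose by 3.08 ± 0.26 (adjusted p = 2.36e-08). The lower genes were small in change, with Abca9 at -0.49, Mgll at -0.45, Lipe at -0.43 and Mylip, a ligase induced by the liver X receptors, at -0.35.

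ATV:4D9 in WT mice called 14 of the 63 higher and 22 lower (57.1%, beside 63.3%; median -0.17 against -0.05). Ch25h rose by 1.56 ± 0.26, the lysosomal glycoprotein Cd68 by 0.64 ± 0.11, the droplet protein Plin3 by 0.64 ± 0.15 and the lipid transporter Abca7 by 0.34 ± 0.14 (adjusted p = 0.0406). Abca9 fell by 1.48 ± 0.15 and Mylip by 0.45 ± 0.11 (adjusted p = 0.00133), and Cyp27a1, which makes 27-hydroxycholesterol, fell from 22.6 ± 0.7 to 5.9 ± 0.5 CPM (-1.82 ± 0.11, adjusted p = 2.6e-11). The retinoid X receptor Rxra, partner of the liver X receptors, fell by 1.27 ± 0.14 (adjusted p = 2.09e-07), and its per-cell difference was -0.43. In AppSAA mice ATV:4D9 called 9 higher and 26 lower against ATV:ISO (55.6%, beside 55.1%). Ch25h rose again (0.60 ± 0.22, adjusted p = 0.0274), and Fabp5 (-1.52 ± 0.31), Abca9 (-1.07 ± 0.15) and Cyp27a1 (-1.04 ± 0.11) fell most. Mylip was at -0.30 ± 0.11 (adjusted p = 0.0246). Of 6 lysosomal cholesterol genes none rose and 4 fell by share, among them Npc1 (-0.52 ± 0.10) and Lipa (-0.27 ± 0.06), the sterol exporter and the acid lipase of lysosomes, whose per-cell differences were -0.02 and 0.23. Trem2 fell by 0.70 ± 0.09 (adjusted p = 3.71e-06).

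Against 4D9 the counts were 8 higher and 30 lower of 63 (60.3%, beside 54.3% of all genes), between genotypes under ATV:4D9 20 higher and 1 lower (Mgll, -0.36; 33.3%, beside 11.8%), and 4D9 against ATV:ISO called 0. Against 4D9, Ch25h rose by 0.56 ± 0.22, and Fabp5 (-1.72 ± 0.31), Abca9 (-1.12 ± 0.15) and Fabp3 (-1.04 ± 0.17) fell most. Between genotypes under ATV:4D9, Fabp5 (3.54 ± 0.33), Fabp3 (2.64 ± 0.19) and Ch25h (2.11 ± 0.23) were highest in difference. The endocytic receptor Lrp1 was not called in any comparison. The interaction called 5 higher and 6 lower (17.5%, beside 9.14%), the largest being Sorl1 (0.86 ± 0.17), Cyp27a1 (0.78 ± 0.15) and Lipe (0.73 ± 0.11) upward and Fabp3 (-1.23 ± 0.27), Nceh1 (-0.82 ± 0.12) and Cd68 (-0.80 ± 0.15) downward. Srebf1, a liver X receptor target and regulator of fatty acid synthesis, rose in WT mice with ATV:4D9 (0.49 ± 0.06, adjusted p = 6.4e-07) and with genotype (0.53 ± 0.06, adjusted p = 1.24e-06) and not in AppSAA mice with ATV:4D9 (0.03, adjusted p = 0.724), with an interaction of -0.46 ± 0.08 (adjusted p = 0.00119).

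Over the 20 mice, the genes whose log2 CPM ran closest to each of the 9 among 8020 genes were as follows, as a description over mice that fall in 5 groups and share pools. Apoe ran closest to Fabp5 (r = 0.992), Igf1 (0.988), Flt1 (0.982), Lyz2 (0.978) and Chst2 (0.974). Plin2 shared 3 of these, Flt1 (0.98), Igf1 (0.974) and Fabp5 (0.974). Abca1 ran closest to Camk2d (0.982), Cflar (0.978) and Man1a (0.978), and Abcg1 to Arap1 (0.972). Lpl ran closest to Fam20c (0.971) and Rtcb (0.968). Scarb1 ran closest to Srebf1 (0.944), Psat1 (0.936) and the sterol synthesis gene Dhcr7 (0.92), Soat1 to Plekhm2 (0.965), and Nr1h2 to Prmt2 (0.977), with Nr1h2 itself at r = -0.842 with the total UMIs of a mouse. Nr1h3 had no close neighbour, with Relb (0.773) nearest.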

How the data were processed

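The authors sorted live CD11b+ cells from brain (the labels give CD45+/CD11b+, and the texts differ on whether hippocampus joined the cortex), hashed 1 mouse per group into each of 4 pools (CellPlex), and processed the reads with Cell Ranger 6.1.1 against mm10; Seurat version 4 was used for clustering. The deposited values are raw UMI counts per cell and gene, with the authors' annotation of mouse, pool, group and cluster (resolution 0.2), which was used as given. The counts summed to the deposited total in all 74758 cells; no doublet caller was run here.

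For each mouse, and for each cluster of a mouse with at least 20 cells, the counts of its cells were added up (a comparison needed at least 3 mice per group). Differences were tested with edgeR 4.0.16 (filterByExpr, TMM, quasi-likelihood F-test, all 5 groups in 1 fit, Benjamini-Hochberg over all genes tested), and per-cell values with two-sided exact permutation tests, unadjusted, whose smallest p for 4 against 4 is 0.0286. Alternatives were RLE factors, no filter, DESeq2 1.42.0, limma-voom 3.58.1, the pool as a block, leaving out each mouse or pool, leaving out the 18 cells (0.0241%) whose other markers at least equalled the microglial ones, and leaving out the 7233 cells under 1000 or over 25000 UMIs. The pools pair the mice by the labels, and deviations from group means correlated within each of 40 pairs (0.143 to 0.607). The fit was tested on simulated counts with known fold changes. These were drawn with no effect of the pool, so that test does not cover the pairing of mice.

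Positions come from GENCODE M21 and promoters from RefSeq, both on GRCm38. The members and gene lists were chosen with earlier results of these data known. All 9 members could be named in each comparison; of the other lipid genes, up to 3 called genes with the largest rise and fall among those with a mean of at least 10 CPM, and, in any comparison, Trem2, Lrp1, Npc1, Npc2, Lipa, Abca7, Mylip, Rxra and Srebf1; 1 further gene is not reported here. The mice are separate animals, and intervals on fold changes are 95%.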

Additional observations from a re-analysis of the deposited data

Results flagged for a closer look

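The effect of ATV:4D9 differed between genotypes for 3 of the 9 genes by the interaction test (edgeR, adjusted over all genes): Abca1 (log2 difference 0.81, AppSAA minus WT), Lpl (-2.50) and Scarb1 (-1.13). The Abca1 call was lost without AppSAA ATV:4D9 replicate 4 (adjusted p = 0.0556). With the pool as a block, Abcg1 (0.34, adjusted p = 0.000296) and Nr1h2 (0.18, adjusted p = 0.0283) were called too. By share, Abca1 was lower after ATV:4D9 in WT mice and not called in AppSAA mice (called higher there with the pool as a block, 0.14, adjusted p = 0.0147). Lpl was higher in WT and lower in AppSAA mice. Scarb1 was higher in WT mice and not called in AppSAA mice (called lower there with the block, adjusted p = 0.0186, and by DESeq2, adjusted p = 0.0412). Per cell, Abca1 stood at 0.18 in WT mice (exact permutation p = 0.571) and Lpl at -0.18 in AppSAA mice (exact permutation p = 0.457). Scarb1 per cell was higher in AppSAA mice (0.34, exact permutation p = 0.0286).

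Of 45 groups of 4 values checked for a sample that stands apart (9 genes in 5 groups), 2 held one: Nr1h2 in AppSAA ATV:4D9 replicate 4, the lowest of its group at 31.8 CPM, and Scarb1 in WT ATV:ISO replicate 2, the lowest of its group at 14.5 CPM. Chance marks about 1 in 20 such groups.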

How the results depend on the processing

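With the pool as a block, for which the pools pair the mice, ATV:4D9 against ATV:ISO in AppSAA mice called 8 of the 9 genes (5 without it; all genes 70.7% against 55.1%), the interaction 5 (3 without it; all genes 30.5% against 9.14%) and the tests inside clusters 64 (37 without it; all gene tests 8.66% against 4.52%); the block ended no call. ATV:4D9 against ATV:ISO in AppSAA mice called 3 with cells of 1000 to 25000 UMIs, a set with fewer cells (51.1% of all genes). By UMIs per cell, at an unadjusted exact permutation p under 0.05, it called 3 (54.1%): Nr1h2, Nr1h3 and Scarb1, all higher. Of these only Nr1h3 was among the calls by share, where Nr1h2 and Scarb1 had the opposite sign and were not called. Those UMI limits need not fall evenly on clusters, as cells averaged 7632 UMIs in cluster 0 and 20599 in cluster 4. Its part in the lost calls was not tested. By UMIs per cell, ATV:4D9 against 4D9 called 2, Nr1h2 and Nr1h3 (5 by share, with Nr1h3 but not Nr1h2, and 45.8% of all genes per cell). Genotype under ATV:4D9 called 2 per cell, Apoe and Plin2 (4 by share, and 12.8% of all genes per cell). Lpl and Soat1, called there by share, were higher per cell in 4 of 4 pools. Their groups overlapped, and this test goes under 0.05 only without overlap. Mean RNA per cell differed 1.02-fold between these groups. Inside clusters 21 calls were made with at least 50 cells per sum, which leaves fewer sums (3.94% of all gene tests), and 21 to 30 without each pool (2.44% to 3.78%). RLE factors, DESeq2, limma-voom, no filter, leaving out cells high in other markers and leaving out single mice kept these counts within 1.5 times. Of 576 values with a mouse left out, 541 kept direction and call, 11 lost the call, 2 gained one and 22 changed sign.

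Signs changed by UMIs per cell for Abca1 (0.18), Abcg1 (0.44), Nr1h2 (0.49), Soat1 (0.48) and Plin2 (0.75) after ATV:4D9 in WT mice; for Abcg1 (0.064) and Nr1h2 (0.22) by genotype under ATV:ISO; for Abcg1 (0.44), Nr1h2 (0.33), Scarb1 (0.34), Soat1 (0.053) and Plin2 (0.16) after ATV:4D9 against ATV:ISO in AppSAA mice; for Abca1 (0.00074) and Nr1h2 (0.028) after 4D9; for Abcg1 (0.46), Nr1h2 (0.30), Scarb1 (0.39) and Plin2 (0.041) against 4D9; and in the interaction for Apoe (-0.21), Abcg1 (-0.000301), Nr1h2 (-0.16) and Nr1h3 (-0.14). The per-cell scale keeps the difference in RNA per cell, which the share removes. The other sign changes were in values near 0 that were not called, and the cause was not tested: by genotype, Nr1h2 with RLE factors (0.018), no filter (0.038), DESeq2 (0.018) and cells of 1000 to 25000 UMIs (0.018); against 4D9, Abcg1 with no filter (0.010) and Scarb1 with cells of 1000 to 25000 UMIs (0.019). With single mice left out, values ranged from -0.17 to 0.012 for Plin2 after ATV:4D9 in WT mice; by genotype from -0.068 to 0.059 for Nr1h2 and -0.13 to 0.38 for Nr1h3; after 4D9 from -0.12 to 0.048 for Abca1, -0.072 to 0.060 for Nr1h2, -0.44 to 0.0022 for Nr1h3 and -0.011 to 0.13 for Soat1; against 4D9 from -0.039 to 0.041 for Abcg1; and in the interaction from -0.071 to 0.36 for Apoe and -0.14 to 0.0090 for Soat1. Nr1h3 held 55 to 261 UMIs per group, and the part of depth in its values was not tested.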
